A study of Mus musculus with 6 samples.

Results

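Fatty acid oxidation in mitochondria and peroxisomes was followed through 32 genes, of 32285 in the count matrices, chosen by symbol. They comprise 19 mitochondrial genes, 8 peroxisomal genes, 3 genes whose products occur in more than one place in the cell (Acsl1, Eci2 and Crat) and 2 regulators (Ppara and Ppargc1a). RNA was captured from frozen mouse kidney sections on 10x Genomics Visium slides, on which every barcoded spot covers several cells. There were 6 libraries and 1 library per group, so no difference has a replicate check and no test was run. Alport mice of genotype B6.Cg-Col4a5tm1Yseg, a model of the collagen IV disease of the glomerular filter, gave 4 libraries. At 5 months these were 5m AS with early and with late hEV treatment (early treated and late treated 5m AS below), and 5m AS, for which the labels give no treatment, and at 2 months 2m AS, also without one. The mixed female library combined WT female and heterozygous female kidney (B6C57 and B6.Cg-Col4a5tm1Yseg), and the WT library came from B6C57. No ages of the mixed female and WT animals, no hEV dose and no definition of early or late treatment stand in the sources used here.

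Fatty acids are first joined to coenzyme A by acyl-CoA synthetases. Long-chain acyl groups then cross into mitochondria on carnitine, through Cpt1a on the outer membrane and Cpt2 on the inner membrane, and are shortened in a repeated cycle of dehydrogenation, hydration, second dehydrogenation and thiolytic cleavage. Peroxisomes run a parallel cycle on very-long-chain, branched and dicarboxylic acids and pass shortened chains on as carnitine esters. The nuclear receptor PPARalpha (Ppara) and its coactivator PGC-1alpha (Ppargc1a) raise the transcription of many of these enzymes. Proximal tubule cells, the bulk of the kidney cortex, are known for covering most of their energy need by this pathway.

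Of the 32 members, 28 had a promoter entry in the RefSeq table for GRCm38.p6, the patch release of the mm10 build named in the submitters' processing notes. Each entry runs from 250 bases before to 50 bases after the start site that the entry gives. That site need not be the outer start of the gene, as for Cpt1a, which begins at 3322334 on chromosome 19, before its window. Nuclear receptors of the PPAR and HNF4 type bind elements built from AGGTCA, so these letters were searched on both strands and are in capitals below. They stood in the windows of 4 of 28 members (Acadm, Acadvl, Cpt1a and Echs1), against 16.0% of all 27025 promoters. The longer TNAAGGTCA and AGGTCANAGGTCA, which contain it, stood in the windows of 0 of 28 members and in 1.26% and 0.0444% of all promoters. The windows of 5 genes are printed because the results turn on these genes. Acadm and Cpt1a carry the element and differed in direction in early treated against 5m AS (0.626 and 1.26). Acsm2 and Acsm3, paralogs on chromosome 7, differed in direction in late treated against 5m AS over all spots (2.10 and 0.667). The log2 ratio of Acsm3 turned positive with the mix of spot regions held equal (0.0751) and without the Serpina1d region described below (0.29). Hadhb is divergently transcribed from Hadha, and the windows of both share 228 bases (chromosome 5, 30155003 to 30155230).
Acadm promoter, chr3:153944594-153944893, - strand: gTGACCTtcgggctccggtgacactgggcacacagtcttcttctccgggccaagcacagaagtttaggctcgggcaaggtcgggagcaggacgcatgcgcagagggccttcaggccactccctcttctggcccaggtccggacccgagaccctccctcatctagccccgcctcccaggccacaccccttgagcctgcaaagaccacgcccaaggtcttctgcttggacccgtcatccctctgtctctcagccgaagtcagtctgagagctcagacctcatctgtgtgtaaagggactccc
Cpt1a promoter, chr19:3323051-3323350, + strand: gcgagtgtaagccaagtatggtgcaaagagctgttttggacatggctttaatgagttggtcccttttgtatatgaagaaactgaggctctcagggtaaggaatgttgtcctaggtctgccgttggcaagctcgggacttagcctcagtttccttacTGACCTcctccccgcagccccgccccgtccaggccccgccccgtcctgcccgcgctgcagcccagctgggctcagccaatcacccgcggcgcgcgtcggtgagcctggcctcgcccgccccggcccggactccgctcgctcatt
Acsm2 promoter, chr7:119554090-119554389, + strand: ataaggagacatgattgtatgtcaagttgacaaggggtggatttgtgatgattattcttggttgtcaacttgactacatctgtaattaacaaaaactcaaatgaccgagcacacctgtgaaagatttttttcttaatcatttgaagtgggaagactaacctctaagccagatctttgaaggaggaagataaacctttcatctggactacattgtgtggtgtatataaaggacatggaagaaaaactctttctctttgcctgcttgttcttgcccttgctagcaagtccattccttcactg
Acsm3 promoter, chr7:119760673-119760972, + strand: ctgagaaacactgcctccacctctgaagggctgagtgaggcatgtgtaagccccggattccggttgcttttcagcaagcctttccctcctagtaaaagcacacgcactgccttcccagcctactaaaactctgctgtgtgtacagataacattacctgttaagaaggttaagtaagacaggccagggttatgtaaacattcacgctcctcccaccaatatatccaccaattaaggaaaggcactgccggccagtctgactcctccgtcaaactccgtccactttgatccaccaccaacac
Hadhb promoter, chr5:30155003-30155302, + strand: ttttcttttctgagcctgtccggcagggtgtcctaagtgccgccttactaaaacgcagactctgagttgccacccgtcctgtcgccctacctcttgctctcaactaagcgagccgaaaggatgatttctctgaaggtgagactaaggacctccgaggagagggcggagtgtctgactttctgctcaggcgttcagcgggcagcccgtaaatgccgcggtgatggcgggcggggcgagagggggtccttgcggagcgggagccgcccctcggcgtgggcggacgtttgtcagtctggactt

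Levels are unique molecular identifier (UMI) counts summed over all spots of a library and divided by the effective library size (scaled CPM). Library totals ran between 48940875 and 91976637 UMIs over 1997 to 4093 spots. Ratios carry an exact (Clopper-Pearson) 95% interval in parentheses that covers counting error only and says nothing of the spread between animals. A member is measured in a comparison if either library reaches 5 scaled CPM, and is called higher or lower from a ratio of 1.5-fold on. In whole sections, fewer cells of a type and less RNA per cell cannot be told apart. Space Ranger, the 10x counting software, was version 1.2.1 for 5m AS and WT and 1.3.1 for the other 4 libraries, so outside 5m AS against WT and the comparisons among those 4, version and group cannot be told apart. The Y-linked gene Ddx3y was at 27.2, 27.2, 22.0 and 22.3 scaled CPM in early treated, late treated, untreated 5m AS and 2m AS, at 0 UMIs in the mixed female library (3 UMIs would be 0.0430 scaled CPM) and at 22.9 in WT, so sex differs wherever the mixed female library is compared. Pairs of libraries shared between 1361 and 3083 spot barcodes, which on Visium slides name positions of a common grid.

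Kidney markers were present in all 6 libraries. Pan-proximal markers, which include the endocytic receptors Lrp2 and Cubn, summed to 6251, 7640 and 4938 scaled CPM in early treated, late treated and untreated 5m AS, 10265 in 2m AS, 9555 in the mixed female library and 10462 in WT. White adipocyte markers summed to at most 2.77 scaled CPM. All 32 members reached 5 scaled CPM in at least 1 library, and 30 did so in every library. The exceptions were Ppara and, in the mixed female library, Acsm3. The highest of the 6 levels was in 2m AS for 17 members, in the mixed female library for 9 and in WT for 6, and in none of the 5-month libraries. The lowest was in untreated 5m AS for 15 members, in early treated for 8, in the mixed female library for 6 and in late treated for 3.

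**Figure D1:**
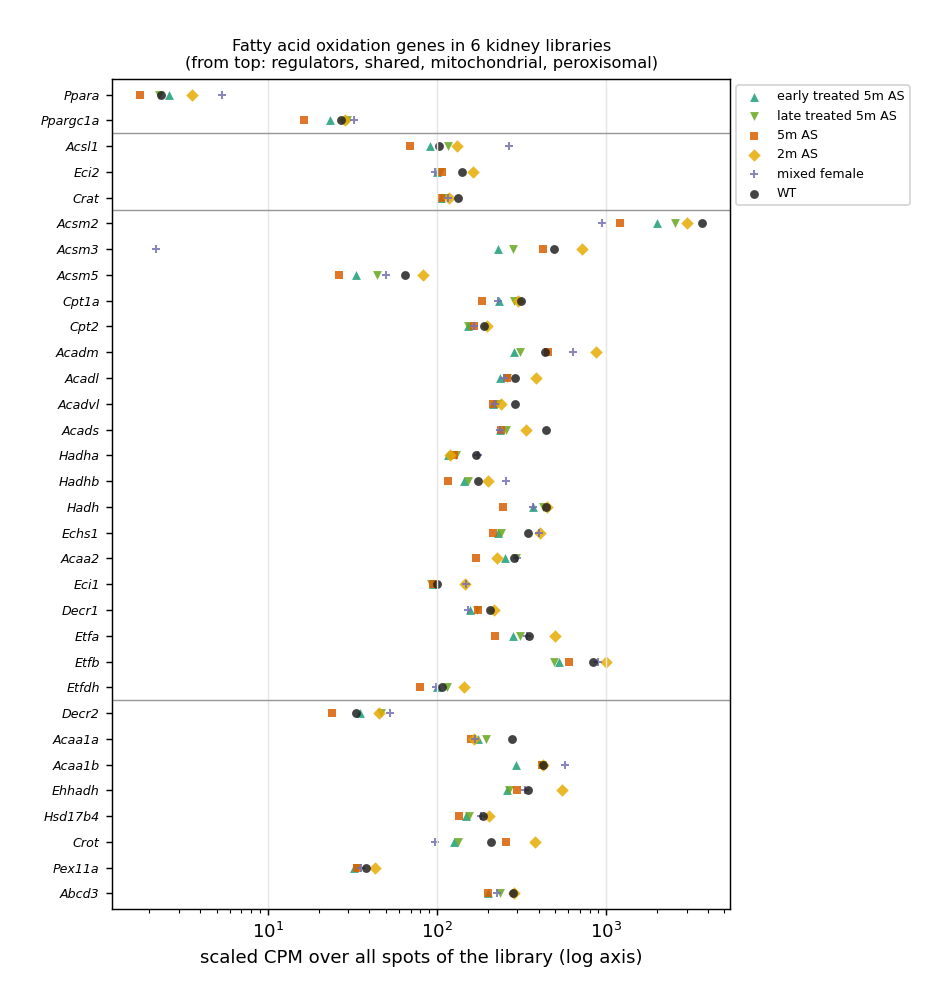
Scaled CPM (log axis) of the 32 members in the 6 libraries, 1 symbol per library and no error bars since each group is 1 library. The untreated 5m AS square is the leftmost symbol for 15 members and the 2m AS diamond the rightmost for 17, and Acsm3 in the mixed female library stands alone at 2.18.

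The regulators were low or moderate in RNA. Ppara (ENSMUSG00000022383, GRCm38 chromosome 15, 85734983 to 85802819), the fatty acid sensing receptor, was at 2.60 in early treated, 2.29 in late treated and 1.77 in untreated 5m AS, 3.60 in 2m AS, 5.36 in the mixed female library and 2.34 in WT, which is 105 to 374 UMIs per library. Ppargc1a, its coactivator, was at 23.4 and 29.5 in early and late treated 5m AS, 16.3 in untreated 5m AS, 28.7 in 2m AS, 32.4 in the mixed female library and 27.3 in WT. Ppargc1a was lowest in untreated 5m AS, and the other libraries lay within a narrow band.

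Activation and entry genes ranged between nearly even (Cpt2) and widely spread (Acsm3) levels. Acsl1, a long-chain acyl-CoA synthetase of the mitochondrial outer membrane and endoplasmic reticulum, stood at 90.9 in early treated, 117 in late treated and 69.5 in untreated 5m AS, 132 in 2m AS, 266 in the mixed female library and 103 in WT. Acsm2, Acsm3 and Acsm5 encode medium-chain acyl-CoA synthetases of the mitochondrial matrix and lie together on chromosome 7, and reads shared between these paralogs could be assigned to one or the other. Acsm2 had 1997 and 2565 in early and late treated 5m AS, 1219 in untreated 5m AS, 3028 in 2m AS, 945 in the mixed female library and 3697 in WT. Acsm3 had 230.1 and 283 in early and late treated 5m AS, 425 in untreated 5m AS, 725 in 2m AS, 2.18 in the mixed female library and 490.1 in WT. Acsm5 was at 33.4 in early treated, 44.2 in late treated and 26.4 in untreated 5m AS, 82.7 in 2m AS, 50.4 in the mixed female library and 64.5 in WT. Acsm2 was highest in WT, Acsm3 and Acsm5 in 2m AS, and the mixed female library held almost no Acsm3 with 152 UMIs. Cpt1a (chromosome 19), the carnitine palmitoyltransferase that controls long-chain entry, stood at 234 in early treated, 288 in late treated and 186 in untreated 5m AS, 301 in 2m AS, 231 in the mixed female library and 315 in WT, with its lowest level in untreated 5m AS. Cpt2, which releases the acyl group inside, spanned only 152 to 198 across the 6 libraries.

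Enzymes of the mitochondrial cycle came next. Acadm, the medium-chain acyl-CoA dehydrogenase, was at 285 and 309 in early and late treated 5m AS, 455 in untreated 5m AS, 873 in 2m AS, 639 in the mixed female library and 439 in WT. Acads, its short-chain counterpart, was at 238 in early treated, 256 in late treated and 240.4 in untreated 5m AS, 337 in 2m AS, 235 in the mixed female library and 445 in WT. Acadm was highest in 2m AS and Acads in WT, so the dehydrogenases for neighbouring chain lengths had different orders of libraries. Acadl spanned 236 to 388 and Acadvl, the very-long-chain enzyme, 215 to 288. The trifunctional protein of the inner membrane is made of Hadha and Hadhb, which are transcribed divergently. Hadhb was at 145 and 152 in early and late treated 5m AS, 116 in untreated 5m AS, 200.4 in 2m AS, 258 in the mixed female library and 175 in WT, and Hadha spanned 116 to 175. Echs1, the short-chain enoyl-CoA hydratase, was at 231 in early treated, 239 in late treated and 216 in untreated 5m AS, 406 in 2m AS, 401 in the mixed female library and 344 in WT. Hadh, the short-chain hydroxyacyl-CoA dehydrogenase, was at 372 and 425 in early and late treated 5m AS, 246 in untreated 5m AS, 451 in 2m AS, 368 in the mixed female library and 443 in WT. Both were lowest in untreated 5m AS. Acaa2, the mitochondrial thiolase, had 254 in early treated, 293 in late treated and 171 in untreated 5m AS, 226 in 2m AS, 298 in the mixed female library and 287 in WT. For unsaturated chains, Eci1, an enoyl-CoA isomerase, was at 94.5 and 91.9 in early and late treated 5m AS, 94.7 in untreated 5m AS, 146 in 2m AS, 149 in the mixed female library and 101 in WT, and Decr1, the dienoyl-CoA reductase, spanned 154 to 217. Eci1 was set apart in 2m AS and the mixed female library from the other libraries.

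Electrons from the acyl-CoA dehydrogenases pass to the flavoprotein ETF (Etfa and Etfb) and from there to ubiquinone through Etfdh. Etfa was at 283 in early treated, 309 in late treated and 219.8 in untreated 5m AS, 498 in 2m AS, 343 in the mixed female library and 352 in WT. Etfb was at 529 and 494 in early and late treated 5m AS, 609 in untreated 5m AS, 1007 in 2m AS, 894 in the mixed female library and 839.7 in WT. Etfdh had 100.2 and 115 in early and late treated 5m AS, 79.8 in untreated 5m AS, 144 in 2m AS, 99.2 in the mixed female library and 107 in WT. All 3 were highest in 2m AS, and Etfa and Etfdh were lowest in untreated 5m AS while Etfb was lowest in late treated 5m AS.

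Among peroxisomal genes, Crot, the carnitine octanoyltransferase that exports shortened chains, was at 126 in early treated, 133 in late treated and 256 in untreated 5m AS, 383 in 2m AS, 98.1 in the mixed female library and 209 in WT. Ehhadh, the L-bifunctional enzyme, was at 259 and 267 in early and late treated 5m AS, 299.6 in untreated 5m AS, 550.2 in 2m AS, 334 in the mixed female library and 348 in WT. Both were highest in 2m AS, and untreated 5m AS lay above both treated libraries. Acaa1a, a peroxisomal thiolase, was at 175 in early treated, 196 in late treated and 159 in untreated 5m AS, 166 in 2m AS, 169 in the mixed female library and 278 in WT, highest in WT. Its close paralog Acaa1b spanned 295 to 573, and reads shared by the pair could be assigned to either. Decr2, the peroxisomal dienoyl-CoA reductase, had 35.0 and 47.0 in early and late treated 5m AS, 23.9 in untreated 5m AS, 45.4 in 2m AS, 53.0 in the mixed female library and 33.4 in WT. Abcd3, a transporter of fatty acids into the peroxisome, spanned 201 to 286, Hsd17b4, the D-bifunctional enzyme, 135 to 202, and Pex11a, a factor of peroxisome division, 32.5 to 43.0. Eci2, an isomerase of peroxisomes and mitochondria, was at 101 in early treated, 104 in late treated and 108 in untreated 5m AS, 164 in 2m AS, 98.1 in the mixed female library and 141 in WT, and Crat, the carnitine acetyltransferase of both, spanned 106 to 133.

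The first comparison asks how Alport kidneys at 5 months differ from WT. None of 31 measured members was higher in 5m AS and 11 were lower, against 11.9% of all genes higher and 12.0% lower. Lower were the entry genes Acsm2, Acsm5 and Cpt1a, the cycle enzymes Acads, Hadhb, Hadh, Echs1 and Acaa2, the electron carrier subunit Etfa, the peroxisomal thiolase Acaa1a and the coactivator Ppargc1a. Acsm2 had a ratio of 0.330 (0.327 to 0.332), Acsm5 0.409 (0.386 to 0.434) and Cpt1a 0.591 (0.578 to 0.605). Acads had 0.540 (0.530 to 0.551), Hadh 0.555 (0.544 to 0.566), Acaa1a 0.570 (0.556 to 0.584) and Ppargc1a 0.597 (0.552 to 0.645). Acadm at 1.04, Acaa1b at 0.976 and Eci1 at 0.941 were nearest to level, and Crot at 1.23 (1.20 to 1.26) had the highest ratio.

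By compartment, 9 of 19 mitochondrial and 1 of 8 peroxisomal members were lower in 5m AS than in WT. The median log2 ratio was -0.46 over the mitochondrial and -0.34 over the peroxisomal members, with -0.12 over all genes. Summed levels were 5247 in 5m AS and 9245 in WT for mitochondrial members, and 1526 in 5m AS and 1803 in WT for peroxisomal members. Acsm2 makes up much of the first sum, and without the Acsm genes it was 3577 in 5m AS and 4993 in WT. The difference of the medians, peroxisomal minus mitochondrial, was 0.12, and 0.04 without the Serpina1d region described below.

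The size of these shifts depends on scaling, to the point that the peroxisomal direction flips. With plain CPM the median of all genes was 0.29, 24.2% of genes were higher and 3.71% lower, and 2 members were lower (Acsm2 and Acsm5) and 1 higher (Crot). The mitochondrial median was then -0.07 and the peroxisomal median turned to 0.06. Relative to the median of all genes the members stood at -0.34 with the main scaling and -0.35 with plain CPM. Against the mixed female library in place of WT, the log2 ratios of Acsm2 and Acads turned to 0.37 and 0.0328. There 10 members were lower and 2 higher, against 14.8% and 13.8% of all genes. They were not the same genes throughout, as 6 of the 11 calls against WT were kept. Acsm2, Cpt1a, Acads, Hadh and Acaa1a were not. Pan-proximal and early proximal markers moved in the same direction as the members, with 5 of 5 pan-proximal markers lower and a sum of 4938 in 5m AS and 10462 in WT, and 7 of 7 early proximal markers lower and a sum of 3465 in 5m AS and 9725 in WT. The pan-proximal markers include Slc27a2, a gene of the uptake list below. Late proximal markers were closer, with a sum of 1116 in 5m AS and 1306 in WT. Other tubule segments differed too. Thick ascending limb markers summed to 4525 in 5m AS and 2528 in WT, distal convoluted tubule markers to 410 in 5m AS and 1289 in WT, and intercalated cell markers to 133 in 5m AS and 535 in WT. Of injury markers 7 of 8 were higher, with a sum of 6856 in 5m AS and 813 in WT, and of macrophage markers 6 of 6, with 2538 in 5m AS and 428 in WT. Their part in the lower levels was not tested over whole sections.

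**Figure D2:**
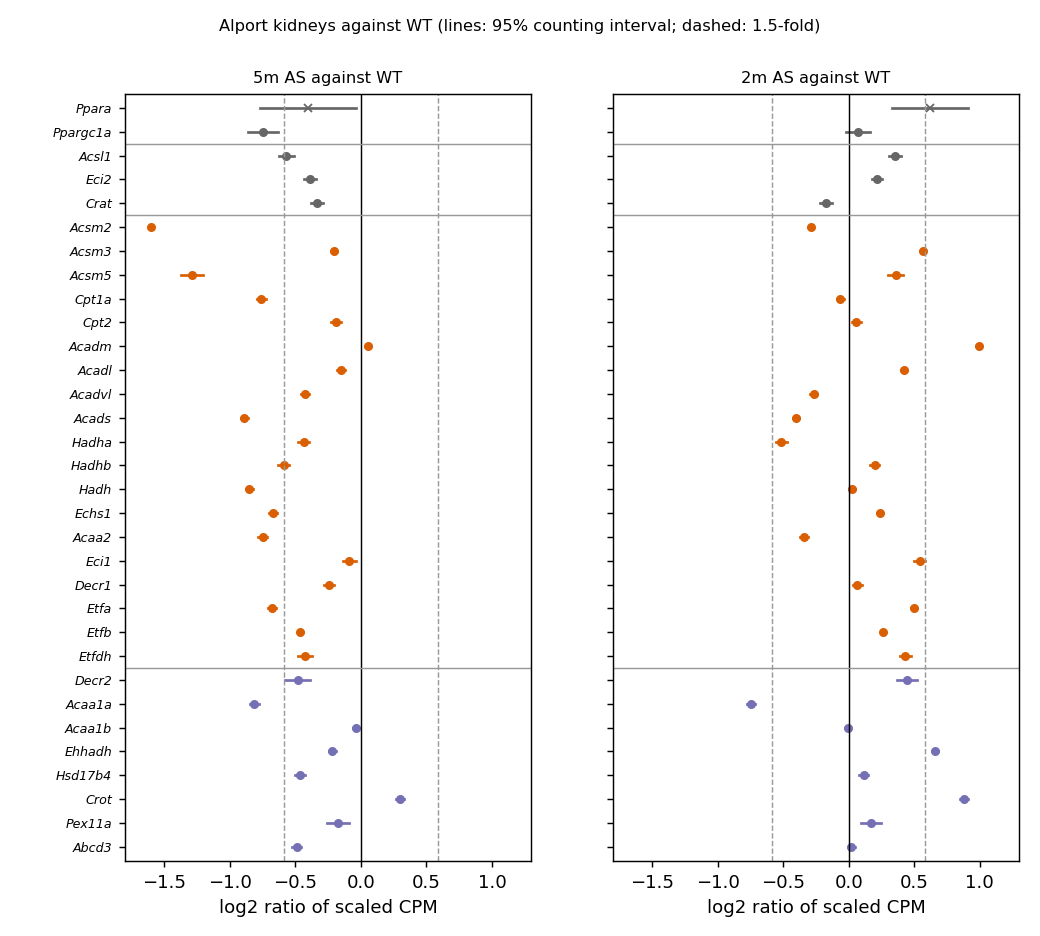
Log2 ratio of scaled CPM for each member in 5m AS against WT (left) and 2m AS against WT (right), with 95% counting intervals as lines, dashed lines at 1.5-fold and a cross for Ppara, which is under the floor. With the scaling used, 11 members lie left of the lower dashed line at 5 months and 1 at 2 months, while with plain CPM 2 members lie left of it at each age and the peroxisomal median at 5 months turns to 0.06.

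The comparison was repeated within groups of spots. Spots were grouped by expression, without the member genes, into 13 regions, which are named here by a leading gene. Genes were scaled within each library for this, so spots of 1 region can differ in absolute expression between libraries. In the Slc5a12 region (with Clec2h and Gldc, early proximal genes; 229 spots from 5m AS, 731 from WT) 8 of 31 members were lower and 0 higher, against 11.5% of all genes lower. Pan-proximal markers summed to 5845 in the 5m AS spots and 11249 in the WT spots of this region, early proximal markers to 6256 in 5m AS and 12195 in WT, injury markers to 5007 in 5m AS and 646 in WT and macrophage markers to 2086 in 5m AS and 399 in WT. Acsm2 had a ratio there of 0.450 and Cpt1a 0.697. The Havcr1 region, led by the tubular injury genes Havcr1, Ccl2 and Vcam1, had 323 spots from 5m AS against 44 from WT. In it 28 of 32 members were lower in 5m AS, against 20.3% of all genes, with a mitochondrial median of -1.01 and a peroxisomal median of -0.99. In that region injury markers summed to 16067 in 5m AS and 740 in WT, pan-proximal markers to 3144 in 5m AS and 10463 in WT, and macrophage markers to 5183 in 5m AS and 1353 in WT. WT spots of the Havcr1 region thus had injury markers near those of WT spots of the Slc5a12 region (740 and 646). The comparison there sets injured 5m AS spots against WT spots with little injury signal. In both regions the part of these markers in the lower levels was not tested.

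In 2m AS few members differed from WT, and most of those were higher. Of 31 measured members, 3 were higher than in WT and 1 was lower, against 7.78% of all genes higher and 8.28% lower, shares near those of the members. Acadm had a ratio of 1.99 (1.96 to 2.02), Crot 1.84 (1.80 to 1.88) and Ehhadh 1.58 (1.55 to 1.61). Acaa1a was lower at 0.597 (0.583 to 0.611). The mitochondrial median was 0.20 and the peroxisomal median 0.14, with -0.05 over all genes. Acadm, Crot and Ehhadh were also higher in late than in early proximal spots (below), as was Acadl, which was within 1.5-fold here at 1.34. Acsm3, higher in late proximal spots of 2m AS and WT, was within 1.5-fold here as well. Late proximal markers summed to 1645 in 2m AS and 1306 in WT, and early proximal markers to 6539 in 2m AS and 9725 in WT. Their part in the differences was not tested. When the mix of regions was held equal, Acadm was the 1 member still past 1.5-fold higher. Crot and Ehhadh then had log2 ratios of 0.48 and 0.43, positive but within 1.5-fold. Hadha and Hadhb, which share a promoter window, differed, with Hadha at 0.701 (0.682 to 0.721) and Hadhb at 1.15 (1.12 to 1.17).

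Between 2 and 5 months in Alport kidneys, 17 of 31 measured members were lower in 5m AS and 0 were higher, against 19.6% of all genes lower and 16.9% higher. These were Acsl1, the 3 Acsm genes, Cpt1a, Acadm, Hadhb, Hadh, Echs1, Eci1, Eci2, the 3 electron transfer genes, the peroxisomal Ehhadh and Decr2, and Ppargc1a. Acsm5 had the lowest ratio, 0.320 (0.302 to 0.338), followed by Acsm2 at 0.403 (0.399 to 0.406) and Etfa at 0.441 (0.432 to 0.450). Acadm had 0.522 (0.514 to 0.529) and Ehhadh 0.545 (0.535 to 0.554). Hadha was level at 1.06 (1.02 to 1.09) while its partner Hadhb was lower at 0.580 (0.564 to 0.597). Nearest to level after Hadha were Acaa1b at 0.981, Acaa1a at 0.955, Acadvl at 0.897 and Crat at 0.896.

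Mitochondrial members had a median log2 ratio of -0.73, with 12 of 19 lower, and peroxisomal members -0.54, with 2 of 8 lower, beside -0.04 over all genes. The difference between the medians was 0.18. With plain CPM the mitochondrial and peroxisomal medians were -0.23 and -0.05, the median of all genes was 0.47, 42.1% of genes were higher and 5.09% lower, and 3 members were lower (Acsm2, Acsm5 and Etfa). Relative to all genes the members stood at -0.58 with the main scaling and -0.60 with plain CPM. Within the Slc5a12 region, 15 of 32 members were lower in 5m AS than in 2m AS, against 23.3% of all genes, where pan-proximal markers summed to 5845 in 5m AS and 11780 in 2m AS. Within the Havcr1 region 27 of 31 were lower, against 22.0%, where pan-proximal markers summed to 3144 in 5m AS against 9153 in 2m AS, with injury markers at 16067 in 5m AS and 5039 in 2m AS.

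The comparisons with untreated 5m AS ask what differs after hEV treatment. Both use the same 5m AS library, so a direction that the treated libraries share is not a repeat. In early treated 5m AS, 2 of 31 measured members were higher than in 5m AS and 3 were lower, against 3.98% of all genes higher and 4.86% lower. Acsm2 had a ratio of 1.64 (1.62 to 1.65) and Hadh 1.51 (1.48 to 1.54). Acsm3 was lower at 0.542 (0.531 to 0.553), Acadm at 0.626 (0.614 to 0.638) and Crot at 0.490 (0.477 to 0.504). The median log2 ratio was near 0 over both compartments, with 0.00 for mitochondrial and -0.02 for peroxisomal members.

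In late treated 5m AS, 8 of 31 measured members were higher than in untreated 5m AS and 2 were lower, against 7.94% of all genes higher and 11.1% lower. Higher were Acsm2 at 2.10 (2.09 to 2.12), Decr2 at 1.97 (1.85 to 2.10), Ppargc1a at 1.81 (1.67 to 1.95), Hadh at 1.73 (1.70 to 1.77), Acaa2 at 1.71 (1.67 to 1.76), Acsl1 at 1.68 (1.62 to 1.74), Acsm5 at 1.67 (1.57 to 1.78) and Cpt1a at 1.55 (1.51 to 1.58). Lower were Crot at 0.518 (0.504 to 0.532) and Acsm3 at 0.667 (0.654 to 0.679). Medians were 0.09 for mitochondrial and 0.10 for peroxisomal members, with -0.03 over all genes.

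Part of these differences goes with 1 region. The Serpina1d region, led by Serpina1d and Bcat1 with the late proximal markers Cyp7b1 and Serpina1f, held 436 spots in 5m AS but 3 and 1 in early and late treated 5m AS, 6 in 2m AS, 1 in the mixed female library and 2 in WT, so it may be a feature of that library. Late proximal markers summed to 383 and 549 in early and late treated 5m AS, against 1116 in untreated 5m AS, while early proximal markers summed to 5888 and 7644, against 3465, and injury markers to 4694 and 2428, against 6856. Their part in the differences was not tested. Without these spots, 0 members were higher and 0 lower in early treated 5m AS, against 2.62% and 5.15% of all genes. In late treated 5m AS 6 were then higher and 0 lower, against 6.92% and 12.3% of all genes. The 6 were Acsm2, Acsm5, Hadh, Decr2, Ppargc1a and Etfa. The log2 ratio of Acsm3 in late treated 5m AS was then 0.29, where it was -0.59 over all spots, and that of Acadm -0.02 in place of -0.56. Crot stayed negative, at -0.48 in the early and -0.39 in the late treated library. Within the Havcr1 region, 8 of 31 members were higher and 0 lower in late treated 5m AS, against 9.79% and 8.25% of all genes, and Acsm2 had a ratio of 2.29. There pan-proximal markers summed to 5517 in late treated and 3144 in untreated 5m AS, and injury markers to 7588 in late treated and 16067 in untreated 5m AS, and their part was not tested.

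**Figure D3:**
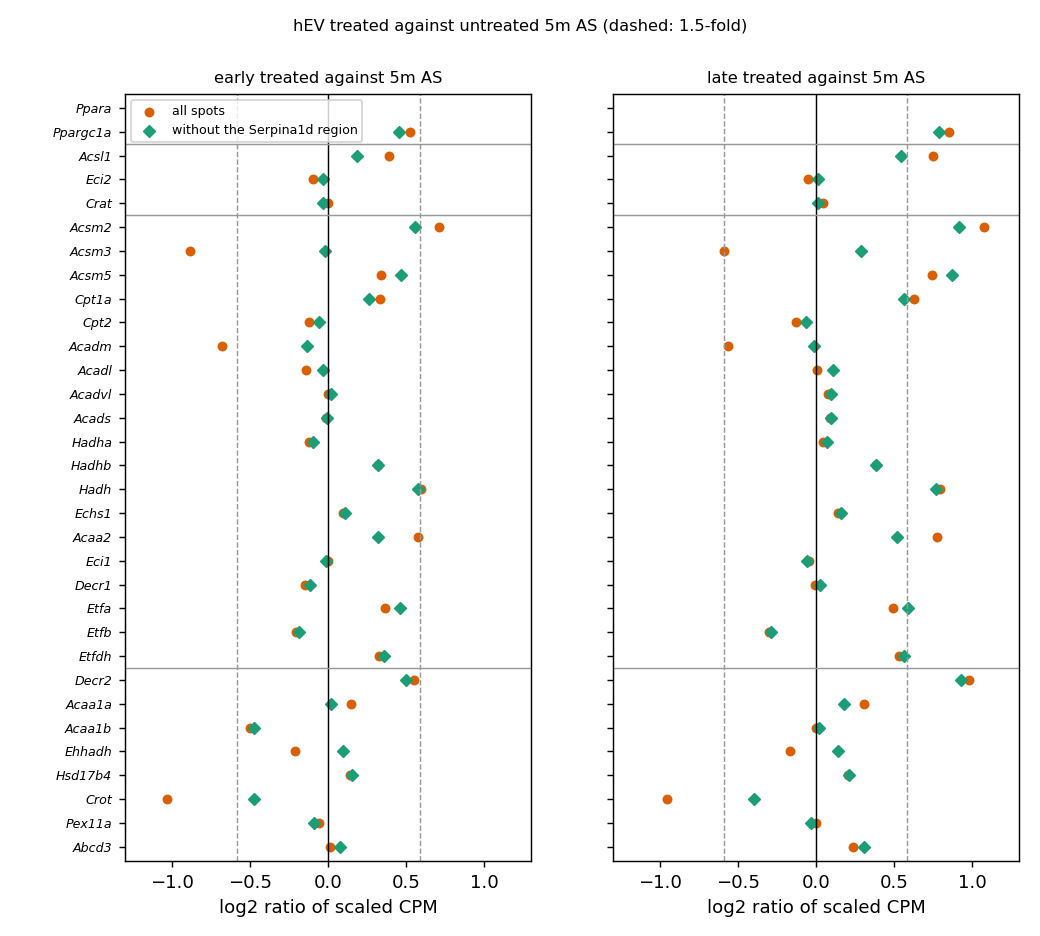
Log2 ratio of scaled CPM for each member in early treated (left) and late treated (right) 5m AS against untreated 5m AS, over all spots (circles) and without the Serpina1d region (diamonds), with dashed lines at 1.5-fold. Ppara is left blank because it is under the floor. Acsm3, Acadm and Crot move towards 0 without that region, while Acsm2, Acsm5, Hadh, Decr2 and Ppargc1a stay right of the dashed line in the late treated library.

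Early and late treated libraries did not differ by 1.5-fold in any of 31 measured members, against 3.70% of all genes higher and 2.02% lower in early treated. The mitochondrial median was -0.14, with 0.02 over all genes. Set against WT, early treated 5m AS had 8 of 31 members lower, against 10.4% of all genes. Late treated 5m AS had 4 of 31 lower, near the 11.6% of all genes. Both were lower for Acsm3, Acads, Etfb and Crot, and early treated also for Acsm2, Acsm5, Acadm and Acaa1a. These comparisons share the WT library. With plain CPM the median over the members turned from -0.43 to 0.03 for early treated and from -0.26 to 0.19 for late treated 5m AS against WT, where the median of all genes was 0.36 and 0.34. In early treated 5m AS 1 member was then lower and 0 higher, against 1.95% and 27.5% of all genes. In late treated 5m AS 0 were then lower and 2 higher, against 2.21% and 26.9%.

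Levels were also compared between proximal segments, where most members lay within 1.5-fold. The Slc22a7 region, led by the late proximal genes Slc22a19, Slc22a7 and Mettl7a2, was set against the Slc5a12 region of the same library. Spots of 1 library are not replicates, so these are values without a test. In 2m AS, 5 of 32 measured members were higher in the Slc22a7 region and 7 lower, against 5.46% and 19.9% of all genes. In the mixed female library, 4 of 31 were higher and 5 lower, against 6.14% and 12.3% of all genes. In WT, 6 of 31 were higher and 2 lower, against 4.47% and 6.93% of all genes. The counts of lower members were near the shares of all genes in these libraries.

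Acadm, Crot, Ehhadh and Acadl were higher in the Slc22a7 region in each of these 3 libraries. Acadm had ratios of 3.29 in 2m AS, 3.86 in the mixed female library and 2.13 (2.04 to 2.22) in WT. Crot had 4.71 in 2m AS, 1.83 in the mixed female library and 3.55 (3.34 to 3.77) in WT. Ehhadh had 2.51 in 2m AS, 3.46 in the mixed female library and 2.13 (2.03 to 2.23) in WT. Of the 8 peroxisomal members, 2 were higher and 2 lower in 2m AS, and likewise in the mixed female library. Acsm3 was 5.07-fold in 2m AS and 2.29-fold in WT, but had a ratio of 0.221 in the mixed female library at very low counts.

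The thiolase Acaa2 was lower in the Slc22a7 region, with ratios of 0.209 in 2m AS, 0.354 in the mixed female library and 0.422 (0.392 to 0.454) in WT. Acaa1a had 0.409 in 2m AS, 0.569 in the mixed female library and 0.680 in WT, the last within 1.5-fold. Acsl1 had 0.271 in 2m AS and 0.429 in WT, and 0.878 in the mixed female library. Most of the cycle did not follow the segment, as Hadha (0.890, 1.03 and 0.991), Acads, Acadvl, Echs1 and Etfb lay within 1.5-fold in all 3 libraries. The 5-month libraries held 22 to 46 spots of this region each, and there Acadm was also higher (3.40 in early treated, 2.77 in late treated and 2.83 in untreated 5m AS) and Acaa2 lower (0.458, 0.400 and 0.317 in the same libraries). In untreated 5m AS, the Serpina1d region had the same order against the Slc5a12 region, with Acsm3 at 6.13, Crot at 3.62, Acadm at 3.21 and Ehhadh at 1.99, and Acaa2 at 0.262.

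**Figure D4:**
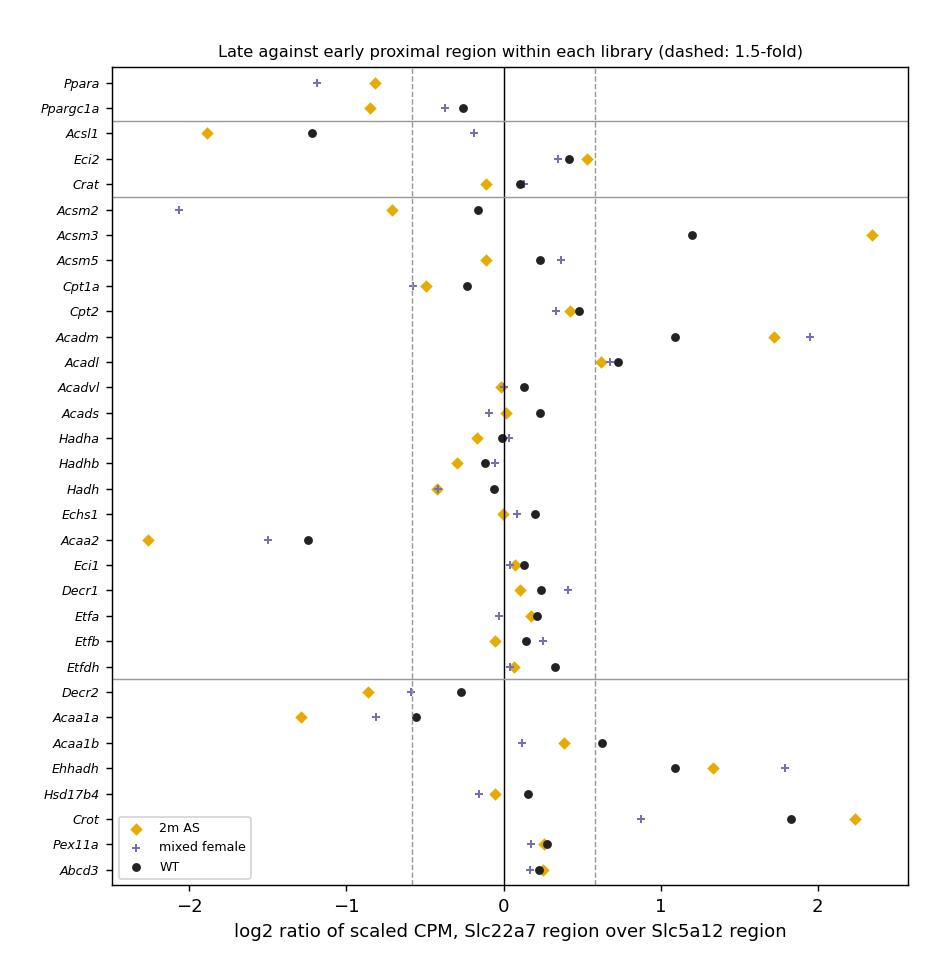
Log2 ratio of scaled CPM in the Slc22a7 region over the Slc5a12 region for each measured member in 2m AS, the mixed female library and WT, with dashed lines at 1.5-fold. Acadm, Acadl, Ehhadh and Crot lie right of the line and Acaa2 left of it in all 3 libraries, while Acsm3 is shown in 2m AS and WT, as it is under the floor in both regions of the mixed female library.

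Spots with injury genes held less of the pathway in the 5-month libraries. The Havcr1 region was set against the Slc5a12 region of the same library. In early treated 5m AS, 7 of 31 members were lower, against 4.72% of all genes. In late treated 5m AS 7 of 31 were lower, against 3.53%, and in untreated 5m AS 14 of 31, against 5.28%. In WT 0 of 32 were lower, against 6.52%, where the region had 44 spots and injury markers of 740 scaled CPM. The mitochondrial median was -0.30, -0.34 and -0.53 in early treated, late treated and untreated 5m AS, and -0.09, -0.06 and 0.07 in 2m AS, the mixed female library and WT.

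Acsm2 had ratios of 0.500, 0.586 and 0.408 in early treated, late treated and untreated 5m AS. Acaa2 had 0.417, 0.491 and 0.436, and Acaa1b 0.577, 0.597 and 0.470, in the same order. Ehhadh had 0.504 in untreated 5m AS and 0.745 and 0.756 in the early and late treated libraries. Hadha at 0.984 and Hadhb at 0.939 in untreated 5m AS were level between the regions. Pan-proximal markers moved with the members. They summed to 4266, 5517 and 3144 in the Havcr1 region of early treated, late treated and untreated 5m AS, against 7481, 9045 and 5845 in the Slc5a12 region. Macrophage markers summed to 3197, 3720 and 5183 in the Havcr1 region, against 1145, 781 and 2086. Their part in the lower levels was not tested.

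**Figure D5:**
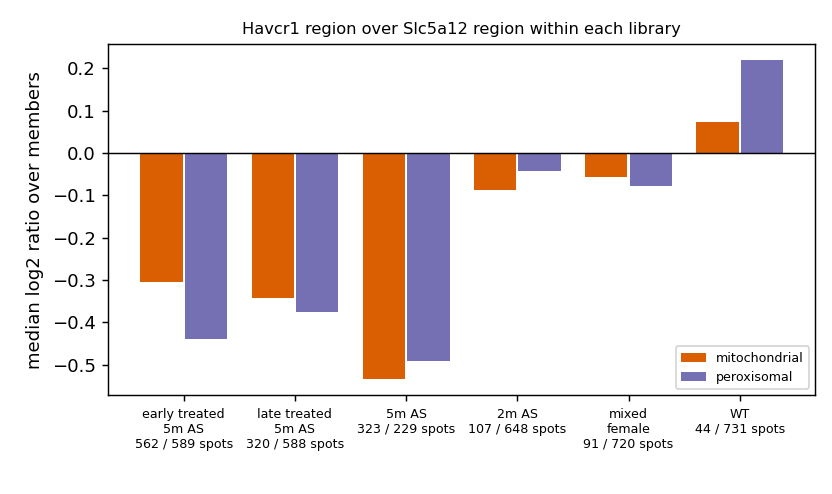
Median log2 ratio of the Havcr1 region over the Slc5a12 region for mitochondrial (orange) and peroxisomal (purple) members in each library, with the number of spots in the 2 regions under each name and no error bars. Both bars lie below 0 in 5 libraries and are lowest in untreated 5m AS, at -0.53 and -0.49, and both lie above 0 in WT.

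Sums of the members were also taken spot by spot. Acsm2 alone is 945 of the mitochondrial sum of 5878 scaled CPM in the mixed female library and 3697 of 9245 in WT. Each spot was thinned to 5000 UMIs, which left out 626, 239, 65, 151, 386 and 71 shallower spots in early treated, late treated, untreated 5m AS, 2m AS, the mixed female library and WT. The median spot then held 33 mitochondrial member UMIs in early treated, 38 in late treated and 29 in untreated 5m AS, 38 in 2m AS, 27 in the mixed female library and 39 in WT. Thinned counts carry no library scaling, so they compare with plain CPM and not with scaled CPM. The scaled mitochondrial sums were 6807 in late treated 5m AS and 9587 in 2m AS. At the percentile of 10 the spot held 17 in untreated 5m AS, against 29 in WT. Peroxisomal members had a median of 7, 8, 8, 7, 7 and 8 UMIs in the same order of libraries, so no order can be read from them. Without thinning, the medians per 5000 UMIs were 30.2 in 5m AS and 39.7 in WT for mitochondrial members, and 8.38 in 5m AS and 7.58 in WT for peroxisomal members. These medians are also without library scaling, and the scaled peroxisomal sums had the other order, at 1526 in 5m AS and 1803 in WT.

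The mixed female library stood apart from WT in single members and not as a set. Of 32 measured members, 3 were higher and 5 lower, against 7.87% of all genes higher and 8.61% lower. Acsm3 was at 2.18 in the mixed female library and 490.1 in WT, a ratio of 0.00445 (0.00377 to 0.00522). Acsm2 had 0.256 (0.253 to 0.258), Crot 0.470 (0.457 to 0.484) and Acads 0.528 (0.518 to 0.538). Acsl1 was higher at 2.58 (2.51 to 2.65), as were Decr2 at 1.59 (1.51 to 1.67) and Ppara at 2.29 (1.90 to 2.77). The paralogs Acsm2, Acsm3 and Acsm5 had ratios of 0.256, 0.00445 and 0.782. Sex and the heterozygous Col4a5 allele cannot be told apart in this library.

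Other genes of the pathway were read from 9 lists. In 5m AS against WT, 11 of 12 other mitochondrial oxidation enzymes were lower and 0 higher, with a median log2 ratio of -0.77 over the list and -0.12 over all genes. Pcca, a propionyl-CoA carboxylase subunit, had a ratio of 0.482 and Mlycd, malonyl-CoA decarboxylase, 0.546. Of 21 measured other peroxisomal enzymes, 10 were lower and 0 higher, with a median of -0.55. Agps, an enzyme of ether lipid synthesis, had 0.358, the racemase Amacr 0.407 and the branched-chain oxidase Acox3 0.434. The 15 peroxisome assembly genes had 1 lower and a median of -0.42, with Pex11g at 0.649. With plain CPM, where the median of all genes is 0.29, these medians were -0.37, -0.15 and -0.02, with 1, 6 and 0 genes lower.

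The supply and control lists were mixed, beside 12.0% of all genes lower and 11.9% higher. With plain CPM 3.71% of all genes were lower and 24.2% higher, and the calls shifted the same way. Lower were then 1 carnitine, 2 uptake, 0 ketone body and 1 nuclear receptor gene. Higher were then 4 of 8 lipid droplet and PPAR responsive genes, 5 of 12 synthetases and thioesterases and 2 of 13 nuclear receptors and co-regulators. The medians of the uptake and the synthetase lists turned from -0.36 and -0.17 to 0.04 and 0.23. That of the lipid droplet list went from 0.06 to 0.46. In the carnitine list 3 of 5 measured genes were lower and 1 higher, with Slc22a5, the carnitine transporter, at 59.7 against 135 scaled CPM in 5m AS and WT, a ratio of 0.442. Of 8 uptake and binding genes, 3 were lower and 1 higher, with Slc27a2 at 0.469, Cd36 at 0.499 and Fabp5 at 1.70. Of 6 ketone body enzymes 4 were lower, as Acat1 at 0.521, and 1 was higher. Among nuclear receptors and co-regulators 5 of 13 were lower and 0 higher, with Klf15 at 0.439, Esrra at 0.584 and Rxra, the partner of PPARalpha, at 0.611. Other synthetases and thioesterases had 4 of 12 lower and 3 higher, with the acetyl-CoA synthetase Acss1 at 0.369 and the thioesterase Acot1 at 2.26. Lipid droplet and PPAR responsive genes had 1 of 8 lower, Pnpla2 at 0.617, and 0 higher.

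In late treated against untreated 5m AS, where 7.94% of all genes were higher and 11.1% lower, the list of other peroxisomal enzymes had 4 of 21 higher and 1 lower, with Amacr at 1.77 and Phyh at 1.73, and Acox2 lower at 0.562. Other mitochondrial enzymes had 2 of 12 higher, Mmut at 1.78 and Pcca at 1.54. Of 8 uptake genes 0 were higher and 2 lower. The carnitine list had 2 of 6 higher and 1 lower, and the synthetase list 3 of 12 higher and 1 lower. Higher were also 2 of 6 ketone body enzymes, 2 of 13 nuclear receptors and co-regulators, 1 of 15 assembly genes and 1 of 8 lipid droplet genes, with 0 lower in these lists. Slc22a5 was at 2.31 and Acss1 at 3.53, with Acot1 at 0.545. In early treated 5m AS, 3.98% of all genes were higher and 4.86% lower. Beside that, 0 of 12 other mitochondrial enzymes and 0 of 15 assembly genes differed by 1.5-fold, near those shares. The carnitine list had 2 of 6 higher and 1 lower, the synthetase list 2 of 12 higher and 2 lower. Other peroxisomal enzymes had 1 of 21 higher and 2 lower, uptake genes 1 of 8 higher, and ketone body enzymes 2 of 6 lower. Acss1 was at 2.58, Slc22a5 at 1.79 and Acox2 at 0.344.

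In 5m AS against 2m AS the lists differed among themselves, and 19.6% of all genes were lower and 16.9% higher. Of other peroxisomal enzymes 16 of 21 were lower and 0 higher, with a median log2 ratio of -0.82, and of other mitochondrial enzymes 11 of 12, with -0.78, beside -0.04 over all genes. With plain CPM 4 and 3 of these were lower and the medians were -0.32 and -0.28, beside 0.47 over all genes. Amacr had a ratio of 0.342, the sterol carrier Scp2 0.377 and Phyh, which starts the breakdown of branched phytanic acid, 0.390. Fabp3, a fatty acid binding protein, had 0.347 and Slc27a2, a fatty acid transporter and very-long-chain synthetase, 0.395. Of the 13 nuclear receptors and co-regulators, 2 were lower and 1 higher, with a median of -0.11 that turned to 0.39 with plain CPM. The carnitine list had 2 of 5 lower and 1 higher, and 1 of 9 lipid droplet and PPAR responsive genes was lower, with a median of -0.33 that turned to 0.39 with plain CPM. The synthetase list had 5 of 12 lower and 0 higher, with a median of -0.22 that turned to 0.28.

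In 2m AS against WT, 7.78% of all genes were higher and 8.28% lower. Of 8 uptake and binding genes 3 were higher and 1 lower. Of 11 synthetases and thioesterases 2 were higher and 0 lower, and likewise 2 of 8 lipid droplet and PPAR responsive genes. Of 6 ketone body enzymes 1 was higher, while 1 of 4 carnitine genes and 1 of 15 assembly genes were lower. Acot1 had a ratio of 2.57, the lipolysis inhibitor G0s2 2.24, the acyl-CoA binding protein Dbi 1.93 and Fabp3 1.73. Rxra had 0.622 and Esrra 0.629, 2 of the 3 lower of 13 nuclear receptors and co-regulators. Of 12 other mitochondrial enzymes 1 was higher and 0 lower, and of 21 other peroxisomal enzymes 2 were higher and 1 lower.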

How the data were processed

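Spatial RNA was measured in 6 Visium libraries of mouse kidney, 1 per group. The deposited matrices hold whole-number UMI counts per gene and spot, which the authors made with Space Ranger 1.2.1 (5m AS and WT) or 1.3.1 (the other 4 libraries), per the file headers. The submitters' processing notes name mm10. Annotation release, strand handling and spot filters: not given in the sources used here. Spot positions were not used here.

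Counts were summed over all spots, and library sizes were multiplied by TMM factors of 0.801 to 1.18 (edgeR 4.0.16, R 4.3.3). A floor of 3 counts is 0.0407 to 0.0521 scaled CPM. Ratios have exact intervals for 2 Poisson counts, at 95%. For regions, the 18840 spots of 500 or more UMIs were grouped without the member genes (scanpy 1.11.5; leidenalg 0.10.2; Python 3.11.15). Genes were centred and scaled within each library, because spots otherwise split by library, and 2000 variable genes, 30 principal components, 15 neighbours and resolution 0.8 were used. Ratio and interval code was tested on simulated data.

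The 6 comparisons, the 1.5-fold rule and the floor of 5 scaled CPM apply to all genes alike. Members past 1.5-fold in a comparison, and the regulators, are given in every library. From each of 9 other pathway lists, up to 4 genes with the largest ratios and at least 20 scaled CPM may be named, and some that met this rule are not reported here. The members and lists were chosen with earlier results of these data known. The 38 symbols that occur more than once were kept apart by identifier, and for a member the symbol was unique. Alternatives were other scalings, equal weight per spot, equal mix of regions, a 2-fold rule, no floor, the mixed female library in place of WT, and, added after seeing the data, leaving out 1 region and centring on the median of all genes.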

Additional observations from a re-analysis of the deposited data

Results flagged for a closer look

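For 11 members the Alport level was over 1.1-fold above WT at 2 months and over 1.1-fold below it at 5 months. The difference was not tested, since each age is 1 library and both share the WT library. The share of all genes that meet this rule was not determined, so the count of members has no background. A ratio of 5m AS to 2m AS under 1 follows from the rule itself. The ratio of 5m AS to 2m AS was 0.320 for Acsm5, 0.441 for Etfa, 0.527 for Decr2, 0.528 for Acsl1, 0.533 for Echs1, 0.545 for Ehhadh, 0.553 for Etfdh, 0.580 for Hadhb, 0.585 for Acsm3, 0.604 for Etfb and 0.660 for Eci2. The set holds all 3 electron transfer genes. With plain CPM the opposite directions held for 8 of the 11. Space Ranger was 1.3.1 for 2m AS but 1.2.1 for 5m AS and WT, and age and version cannot be told apart.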

How the results depend on the processing

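No paired analysis was possible because each group has 1 library, and leaving out a replicate was not possible for the same reason. In 2m AS against WT, the members higher were 5 with median-of-ratios factors (9.83% of all genes) and when centred on the median of all genes. They were 1 with an equal mix of regions, 0 at 2-fold and 7 against the mixed female library (7.50% of all genes). Acadm and Acaa1a were not past 1.5-fold against that library. Of its mitochondrial members 4 were higher, and 1 without the Acsm genes. The members lower were 2 with plain CPM (12.2% of all genes) and 0 at 2-fold. The share of all genes past 2-fold was not determined. In 5m AS against WT, the members higher were 1 with plain CPM (24.2% of all genes) and 2 against the mixed female library (13.8%). The members lower were 2 with plain CPM (3.71%) and 2 at 2-fold. In 5m AS against 2m AS, the members lower were 3 with plain CPM (5.09% of all genes) and 3 at 2-fold. In early treated against 5m AS, the members higher were 4 with plain CPM (5.01% of all genes). They were 1 without mitochondrially encoded genes (3.87%), with equal weight per spot and without the Havcr1 region. They were 0 with an equal mix of regions, at 2-fold and without the Serpina1d region. The members lower were 0 with an equal mix of regions and without the Serpina1d region, and 1 at 2-fold. In late treated against 5m AS, the members higher were 5 with an equal mix of regions and 1 at 2-fold. The members lower were 1 with plain CPM (9.86% of all genes) and when centred, and 0 with an equal mix of regions, at 2-fold and without the Serpina1d region.

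The peroxisomal minus mitochondrial median was -0.17 in 2m AS and 0.30 in 5m AS against the mixed female library. In 5m AS against WT it was 0.0529 with an equal mix of regions, 0.17 without the Havcr1 region and 0.0395 without the Serpina1d region. In 5m AS against 2m AS it was 0.23 with equal weight per spot. With Eci2 and Crat counted as peroxisomal it was -0.0663 in late treated against 5m AS and 0.0709 in early against late treated. Log2 ratios that turned sign were Acsm2 at 0.37 and Acads at 0.0328 in 5m AS against the mixed female library, and Acsm3 in late treated against 5m AS, at 0.0751 with an equal mix of regions and 0.29 without the Serpina1d region. With plain CPM the share of calls that were lower was 70.4% in 2m AS against WT, where it was 51.6%. The causes were not tested. Counting error was widest for Ppara, with 105 to 374 UMIs per library.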

Other observations

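A region led by Ces1g, Cyp2a5 and Cyp2e1 held 535 spots in early treated, 483 in late treated and 240 in untreated 5m AS, 47 in 2m AS, 23 in the mixed female library and 5 in WT. Summed over its spots, mitochondrial members reached 8050 scaled CPM in early treated, 8575 in late treated and 6464 in untreated 5m AS, against 6198, 6975 and 5626 in the Slc5a12 region of the same libraries. Peroxisomal members reached 1851, 1987 and 1906, against 1204, 1397 and 1430. Pan-proximal markers summed to 9095, 9905 and 6914 in it, against 7481, 9045 and 5845, early proximal markers to 7313, 8412 and 5810, against 8540, 10773 and 6256, late proximal markers to 740.4, 933 and 862, against 257, 325 and 382, and injury markers to 1671, 918 and 3085, against 2934, 1901 and 5007 in the Slc5a12 region.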
